A study of Mus musculus with 10 samples.

Results

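The genes described here are Rps13, a gene of the small ribosomal subunit, and the cluster of Trim genes around Trim34a, all on mouse chromosome 7. They were chosen by symbol: Rps13 and Trim34a because both were low in the same knockout embryos, and Trim34b, Trim30a, Trim30b, Trim30c, Trim30d, Trim12a, Trim12c and Trim6 because they are relatives of Trim34a in the same cluster. Of these 10 genes, 9 had a probe set (a group of array probes summarised to a single value) annotated to them alone. Together they had 10 of the 41345 probe sets on the array, with 2 for Trim34a. Trim34b had none of its own.

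The RNA was from nasal respiratory epithelium of E16.5 mouse embryos, which was laser-captured from 8 µm sections after formalin fixation and paraffin embedding. The 5 knockout (TKO) samples lack miR-34a (miR-34a-/-), miR-34b/c (miR-34b/c-/-) and the cluster miR-449a/b/c (miR-449a/b/c-/-); TKO 1 and TKO 3 are labelled female, and TKO 2, TKO 4 and TKO 5 male. The 5 wild-type (WT) samples are labelled female except WT 3, which is labelled male. Each sample is called an embryo here, with 1 array each, but the labels give no strain, no litter and no Cre or transgene, nor do they say whether tissue was pooled, so a p-value measures only the spread between these samples. The expression values, made by RMA, are on a log2 scale and ran from 1.50 to 13.67, and the correlation between arrays was 0.975 to 0.989. Of 20 listed markers of the respiratory epithelium, 18 were tested, and the list averaged 9.74 to 9.88 in TKO embryos and 9.72 to 9.83 in WT embryos. None of the 18 passed the test, where 5.51% of all 16635 tested genes passed, so nothing is read from that count.

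Rps13 is a protein of the small subunit of the ribosome, needed in every cell that makes protein. TRIM proteins carry a RING domain, a B-box and a coiled coil, and many act as ubiquitin ligases in innate immunity; a number of them are switched on by interferon. The mouse cluster holds Trim34a and Trim34b, Trim6, Trim12a and Trim12c, which are the mouse relatives of primate TRIM5, a factor that recognises retroviral capsids, and the Trim30 genes, of which mouse Trim30a is known as a brake on signalling from Toll-like receptors.

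Promoter windows from RefSeq (GRCm38.p6) were read for all 10 genes, 250 bases before to 50 bases after an annotated start, and 4 of them are shown: those of Rps13 and Trim34a, which the account turns on, that of Trim12a, the tested gene whose pattern was most like that of Trim34a, and that of its close relative Trim12c. They lie at chr7:116334141-116334440 (minus strand) for Rps13, chr7:104244207-104244506 (plus strand) for Trim34a, chr7:104315446-104315745 (minus strand) for Trim12a and chr7:104353300-104353599 (minus strand) for Trim12c. Capitals mark matches to the core of the interferon-stimulated response element, GAAA, any 2 bases and GAAA again, searched on both strands; all matches shown are on the opposite strand, so that they read TTTC, 2 bases and TTTC.
Rps13: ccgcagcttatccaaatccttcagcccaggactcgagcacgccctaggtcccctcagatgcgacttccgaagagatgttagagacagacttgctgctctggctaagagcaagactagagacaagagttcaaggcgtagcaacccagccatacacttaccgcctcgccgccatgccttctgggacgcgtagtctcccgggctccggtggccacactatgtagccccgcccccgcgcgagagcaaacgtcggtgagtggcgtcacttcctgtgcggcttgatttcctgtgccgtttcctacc
Trim34a: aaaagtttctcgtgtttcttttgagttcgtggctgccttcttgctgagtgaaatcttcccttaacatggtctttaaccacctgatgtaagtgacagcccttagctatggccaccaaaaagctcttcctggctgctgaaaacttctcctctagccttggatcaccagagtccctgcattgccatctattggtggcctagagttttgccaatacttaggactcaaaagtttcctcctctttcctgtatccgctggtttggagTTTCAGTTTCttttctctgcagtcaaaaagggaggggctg
Trim12a: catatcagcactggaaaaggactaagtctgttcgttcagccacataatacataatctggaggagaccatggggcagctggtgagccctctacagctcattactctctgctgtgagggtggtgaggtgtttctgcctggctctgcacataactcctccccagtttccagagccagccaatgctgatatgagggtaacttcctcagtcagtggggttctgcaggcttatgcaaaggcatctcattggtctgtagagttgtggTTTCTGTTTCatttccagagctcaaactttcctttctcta
Trim12c: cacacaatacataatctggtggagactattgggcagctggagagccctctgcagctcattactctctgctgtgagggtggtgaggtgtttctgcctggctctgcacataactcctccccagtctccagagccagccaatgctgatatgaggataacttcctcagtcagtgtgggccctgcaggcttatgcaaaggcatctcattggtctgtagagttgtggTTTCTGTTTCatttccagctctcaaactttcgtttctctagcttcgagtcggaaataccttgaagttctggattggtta

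The motif stood in 6 of the 11 windows of the 10 genes (Trim30a has 2 annotated starts), in those of Trim34a, Trim12a, Trim12c, Trim30a and Trim30d. Of all 32851 windows in the RefSeq table, 3.44% held it. The windows of the Trim genes are copies related by descent, so their matches are not independent. No match was found in the windows of Rps13, Trim34b, Trim6, Trim30b and Trim30c, which says only that these letters are not in those windows.

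Rps13 had the widest spread of the 10 probe sets. Its values were 9.03, 5.58, 9.84, 4.99 and 5.00 in TKO 1 to TKO 5, against 9.87, 10.04, 9.43, 10.02 and 10.18 in WT 1 to WT 5. The TKO embryos thus fell apart into 3 very low values, those of the embryos labelled male, and 2 values near the WT level, those of the females. The means were 6.89 ± 2.35 in TKO and 9.91 ± 0.29 in WT (SD, n = 5 each), a difference of -3.02 on the log2 scale. With sex in the model it was -1.91. The genotypes overlapped, since TKO 3 lay above WT 3. Rps13 and Trim34a were chosen on this contrast, so their differences are descriptions and carry no test.

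Trim34a had 2 probe sets, and on both the 3 male TKO embryos had the lowest values. The brighter had values of 6.68, 5.16, 6.85, 5.23 and 4.54 in TKO 1 to TKO 5, against 7.31, 7.16, 7.17, 7.44 and 7.48 in WT 1 to WT 5. All TKO values lay below all WT values, and the means were 5.69 ± 1.02 in TKO and 7.31 ± 0.15 in WT (SD, n = 5 each), a difference of -1.62 and of -1.16 with sex in the model. The dimmer had values of 5.47, 4.45, 5.96, 4.90 and 4.37 in TKO 1 to TKO 5, against 6.02, 5.91, 5.79, 6.04 and 6.10 in WT 1 to WT 5. Here TKO 3 lay within the WT range, and the means were 5.03 ± 0.68 in TKO and 5.97 ± 0.12 in WT (SD, n = 5 each), a difference of -0.94 and of -0.63 with sex in the model. The spread among TKO embryos was wide for both probe sets, 2.31 and 1.60 from lowest to highest, against 0.33 and 0.31 among WT embryos. Strain and probe sequences were not given, so whether these low values mean less transcript was not tested. Other probe sets that include Rps13 or Trim34a, described below, lacked them, but they are shared with other genes and their signal cannot be assigned. Even where a value does follow the transcript, bulk RNA of this kind cannot tell fewer cells that hold it from less of it per cell.

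**Figure D1:**
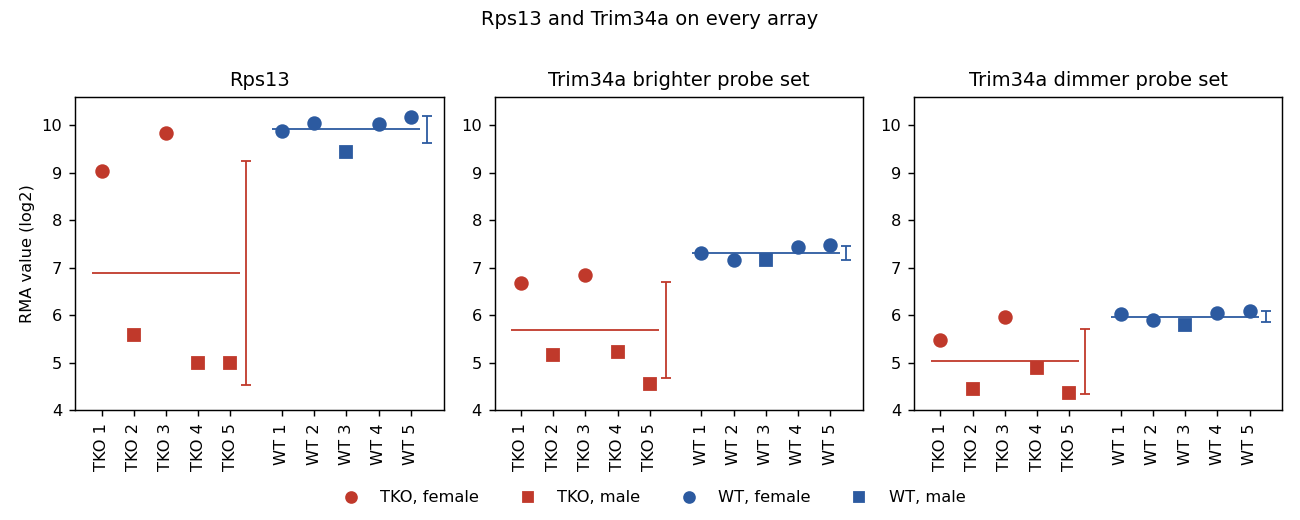
RMA values (log2, vertical axis) of Rps13 and the 2 probe sets of Trim34a on each array; points are embryos, circles female and squares male, horizontal lines are genotype means and bars the SD (n = 5 each). For Rps13 the 3 male TKO embryos sat between 4.99 and 5.58, while the 2 female TKO embryos sat at 9.03 and 9.84 and the WT embryos between 9.43 and 10.18.

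Split by labelled sex, most of the difference lay in the males. Among females, Rps13 averaged 9.43 in TKO (n = 2) and 10.03 in WT (n = 4), a difference of -0.59, and the brighter Trim34a probe set averaged 6.77 in TKO and 7.35 in WT, a difference of -0.58. Among males, Rps13 averaged 5.19 in TKO (n = 3) against 9.43 in the single WT male, which is 19.0-fold lower, and the brighter Trim34a probe set averaged 4.98 against 7.17, which is 4.57-fold lower. The dimmer Trim34a probe set was 2.33-fold lower in the TKO males than in the WT male. The WT male was thus high for both genes, and within TKO the low values and the male label cannot be told apart. The model's sex term, male minus female, was -2.78 for Rps13 and -1.14 for the brighter Trim34a probe set.

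The gap was rare in the whole table. For Rps13 the highest male TKO embryo lay 3.45 below the lowest of the 7 other embryos, and for the brighter Trim34a probe set the gap was 1.44. Of 41345 probe sets these were the only 2 with a gap of at least 1 in that direction, and there were 0 with such a gap in the other. The next in order was an unnamed probe set with a gap of 0.82. A gap of at least 0.5 was found for 5 probe sets, the dimmer Trim34a probe set among them at 0.58, and any gap at all for 635 with the male TKO embryos lower and 509 with them higher. This comparison was set up after the values were seen, and it uses the values that chose the genes.

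The relatives of Trim34a had no call. With sex in the model, none of the 7 probe sets of the other Trim genes passed an adjusted p of 0.05 (limma over all 41345 probe sets, Benjamini-Hochberg). Among all probe sets, 1.34% passed. An unadjusted p below 0.05 in limma was found for 2 of the 7. The share of all probe sets at that threshold was not counted, so nothing is read from the 2. The median difference of the 7 was -0.15, and that of all probe sets was -0.011. Of the 7 differences, 5 were negative and 2 positive.

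Trim30d came nearest to Trim34a in separating the genotypes. Its values were 3.75, 3.89, 4.14, 3.38 and 4.13 in TKO 1 to TKO 5, against 4.95, 4.48, 4.37, 4.75 and 4.51 in WT 1 to WT 5, so that the genotypes did not overlap. Among all probe sets, 1.44% were lower in TKO without overlap, 3.05% higher and 4.49% either. The difference was -0.67 ± 0.17 (SE, n = 5 each; limma adjusted p = 0.103). Unlike Rps13 and Trim34a, Trim30d was not lower in all male TKO embryos than in the females: TKO 5 lay at the level of TKO 3. Its mean stood at the 27.3th percentile of all probe sets.

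The other Trim30 genes were at the floor of the array. Trim30a, the regulator of Toll-like receptor signalling, ranged from 2.62 to 2.84 in TKO and from 2.69 to 3.24 in WT embryos. Trim30b ranged from 3.21 to 3.61 in TKO and from 3.19 to 3.67 in WT. Trim30c ranged from 2.79 to 3.07 in TKO and from 2.87 to 3.28 in WT. These means stood at the 8.52th, 15.8th and 11.4th percentile of the table, the only 3 of the 10 below its 25th percentile, and their differences were -0.15 ± 0.13, -0.065 ± 0.11 and -0.24 ± 0.11 (SE). The deposited values give no detection call, so a change could not be read at such levels.

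Trim12a and Trim12c are near copies of each other, and neither passed the test; the difference between them was not tested. Trim12a had values of 5.32, 5.00, 5.71, 5.09 and 4.07 in TKO 1 to TKO 5, against 5.99, 5.49, 5.22, 6.34 and 5.79 in WT 1 to WT 5. The 3 male TKO embryos were again the lowest of the 10, by a gap of 0.13, and the next lowest was the WT male. With sex in the model the difference was -0.43 (95% interval -0.95 to 0.091, limma adjusted p = 0.472). Trim12c had values of 5.18, 5.73, 5.15, 5.44 and 4.95 in TKO 1 to TKO 5, against 5.01, 4.52, 5.76, 4.73 and 4.75 in WT 1 to WT 5. Its highest values were those of the males WT 3 and TKO 2, and its difference was 0.12 (95% interval -0.31 to 0.56, limma adjusted p = 0.856).

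Trim6, another gene of the cluster, had a positive difference. Its values were 4.61, 4.19, 4.61, 4.63 and 4.54 in TKO 1 to TKO 5, against 4.32, 4.17, 3.80, 4.01 and 4.10 in WT 1 to WT 5. All TKO embryos except TKO 2 lay above all WT embryos. The difference was 0.53 ± 0.12 (SE, n = 5 each; limma adjusted p = 0.0644), close to the threshold, and its mean was at the 28.5th percentile of the table. For the 7 relatives the sex term did not pass (smallest limma adjusted p = 0.502). Among all probe sets it passed for 0.249%, so nothing is read from the 7. A term for a genotype effect that depends on sex rests on the single WT male, so nothing is read from it either.

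**Figure D2:**
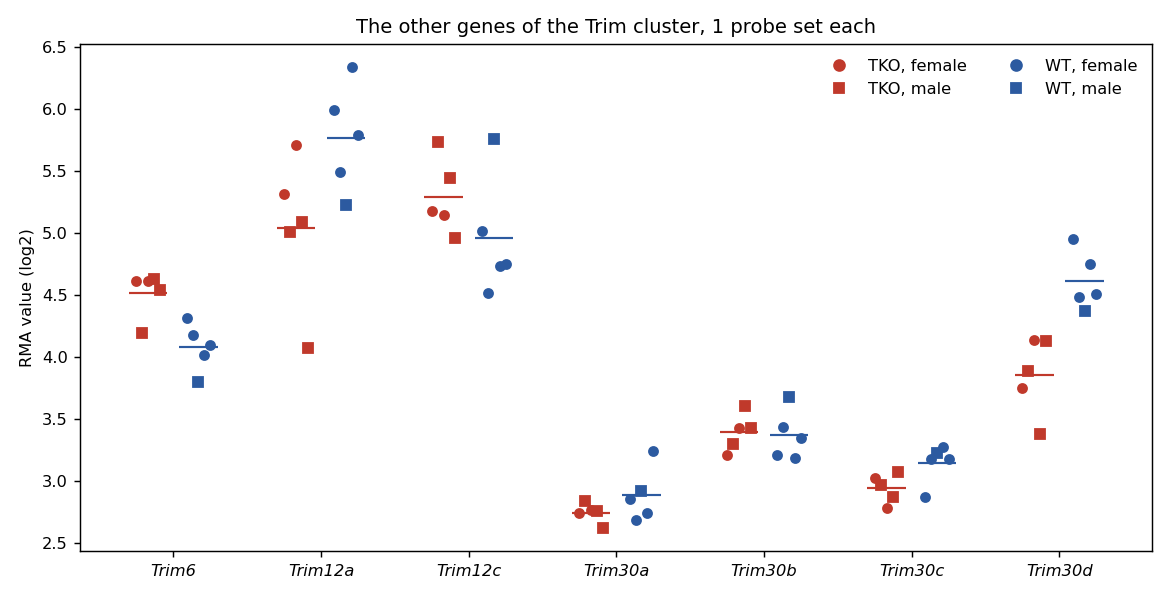
RMA values (log2, vertical axis) of the 7 other Trim genes on each array, TKO left and WT right for each gene; circles are female and squares male embryos, and horizontal lines are genotype means (n = 5 each). Trim30d is lower in TKO without overlap, Trim6 is higher in 4 of 5 TKO embryos, and Trim30a, Trim30b and Trim30c have the lowest values.

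At the level of genes, with the brightest probe set of each gene and dim genes left out, 4 of the 10 genes were tested (Rps13, Trim34a, Trim12a and Trim12c) and 1 of them, Trim34a, passed, where 5.51% of all 16635 tested genes passed. Nothing is read from that count, since the contrast chose the gene.

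A further 6 probe sets were annotated to 1 of the 10 genes together with others, and their signal cannot be assigned to either. The largest difference among them was in a probe set annotated to Gm15483, Rps13-ps4 and Rps13 (Rps13-ps4 is a pseudogene of Rps13 by its name); it is singled out after its values were seen. It had values of 9.81, 10.91, 10.12, 10.59 and 10.65 in TKO 1 to TKO 5, against 7.25, 6.12, 10.07, 7.73 and 7.75 in WT 1 to WT 5. All TKO embryos were high, as was the WT male, while the 4 WT females were low. The difference with sex in the model was 1.99 ± 0.43 (SE, n = 5 each; limma adjusted p = 0.0525), in the opposite direction to that of the probe set of Rps13 alone.

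Neither of the other probe sets that include Rps13 had the low values. A second probe set annotated to the same 3 genes ranged from 7.44 to 7.84 in TKO and from 7.07 to 7.67 in WT (difference 0.28 ± 0.13, SE; limma adjusted p = 0.387). The probe set shared with Snord14a, the small nucleolar RNA encoded in Rps13, ranged from 6.34 to 7.13 in TKO and from 6.08 to 6.86 in WT (difference -0.16 ± 0.19, SE; limma adjusted p = 0.793). On both, the male TKO embryos were above the female TKO embryos on average, with means of 7.74 and 7.58 for the first and of 6.74 and 6.44 for the second. The low values of the male TKO embryos thus stood on the 1 probe set annotated to Rps13 alone. They were not seen on those shared with other genes, whose signal cannot be assigned to Rps13.

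The probe set shared by Trim34b and Trim34a also lacked the pattern. Its mean over all embryos, 4.63, lay near the filter for dim genes (4.58), where a drop could be missed. Its values were 4.72, 5.18, 4.92, 4.87 and 4.16 in TKO 1 to TKO 5, against 4.86, 4.20, 4.71, 4.23 and 4.45 in WT 1 to WT 5, with TKO 2 the highest of all 10 embryos. The difference was 0.26 ± 0.22 (SE; limma adjusted p = 0.688). The 2 probe sets shared by Trim12c and Trim5 had differences of 0.23 and -0.11 (limma adjusted p = 0.585 and 0.824).

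**Figure D3:**
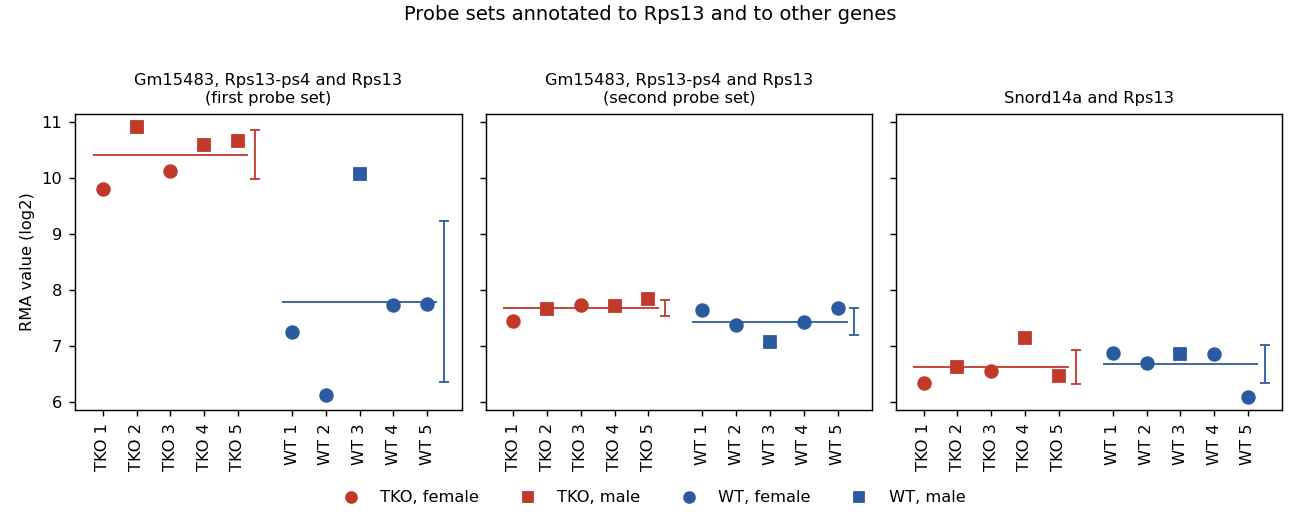
RMA values (log2, vertical axis) of the 3 probe sets annotated to Rps13 together with other genes, on each array; circles are female and squares male embryos, lines are genotype means and bars the SD (n = 5 each). The first is high in all TKO embryos and in WT 3 at 10.07, and low in the WT females, while the others vary little.

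Ribosomal proteins are made in balance with one another, and of 60 tested ribosomal protein genes other than Rps13, 2 rose and none fell, with a median difference of 0.013 against -0.00052 for all tested genes, of which 4.39% rose and 1.12% fell. Rpl3, a protein of the large subunit, rose 2.29-fold, with 10.69 ± 0.28 in TKO and 9.51 ± 0.25 in WT (SD, n = 5 each; limma adjusted p = 0.00179), and Rps27l rose 1.23-fold (limma adjusted p = 0.0296). Rpl34 and Rpl6 had differences of 0.29 and 0.28 that did not pass. The median range of the 60 genes over the 10 arrays was 0.32, and the widest ranges were those of Rps15 (1.82), Rpl3 (1.77) and Rps3a1 (1.50), against 5.19 for Rps13. In 0 of the 60 did the 3 male TKO embryos all lie below the other embryos. The range of Rps13 was the 26th widest of the 41345 probe sets, and that of the brighter Trim34a probe set the 207th. Both ranges come from the low values on which the genes were chosen, so they and the contrast with the 60 genes are descriptions only.

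Interferon-stimulated genes, to which several genes of the Trim cluster are known to belong, were read next. Of 44 tested, 1 rose, Oasl1, an antiviral protein of the oligoadenylate synthetase family (1.29-fold, limma adjusted p = 0.0453), and none fell, where 4.39% of all tested genes rose and 1.12% fell. Nmi (0.53), Cmpk2 (0.44) and Herc6 (-0.31) had the next smallest p and did not pass. The list's median difference was -0.042, and its mean level lay between 6.26 and 6.35 in TKO and between 6.20 and 6.45 in WT embryos. The male TKO embryos, at 6.35, 6.26 and 6.29, lay within the WT range.

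Of 11 tested genes that work with TRIM proteins in sensing, 1 rose, a share of 9.09%, against 4.39% of all tested genes. This was Tab2, an adaptor of the TAK1 kinase that mouse Trim30a is known to act on, which rose 1.30-fold, with 7.99 ± 0.11 in TKO and 7.63 ± 0.05 in WT (SD, n = 5 each; limma adjusted p = 0.0139). Irf3 (0.29), Nlrp3 (-0.34) and Rela (-0.13) did not pass. Of 36 tested Trim genes on other chromosomes, 4 rose and none fell, with 11.1% called against 5.51% of all tested genes and a median difference of 0.0068: Trim59 (1.60-fold, limma adjusted p = 0.00951), Trim14 (1.43-fold), an adaptor in antiviral signalling, Trim17 (1.33-fold) and Trim10 (1.27-fold). For each of the 4, every TKO value lay above every WT value, which was so for 3.05% of all probe sets. The 4 are those that passed, so this adds no support. None of 6 other Trim genes of chromosome 7 passed: Trim68 had a difference of -0.32 (limma adjusted p = 0.0603), Trim28 of 0.20, Trim3 of -0.22 and Trim72 of -0.24.

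The chromosomal neighbours were read next, in the order of the RefSeq genes. The 20 nearest tested genes on each side of Trim34a were taken, members of the cluster left out. Of these, 0 of 40 passed, where 5.51% of all tested genes passed. An unadjusted p below 0.05 in limma was found for 8. The share of all genes at that threshold was not counted, so nothing is read from the 8. Olfactory receptor genes made up 24 of the 40. The 40 differences ran from -0.45 to 0.41, and the nearest on each side, Olfm5 and Olfr656, had differences of 0.12 and -0.12. None of these differences reached the size of that of Trim34a, -1.16 with sex in the model. Trim34a was chosen for its low values and its neighbours were not, so nothing is read from that contrast. Several of the olfactory receptor genes also had means near the filter for dim genes (4.58), where a change could be missed. With 40 tested genes on each side 3.75% passed, and whether a wider region differs as a whole was not tested.

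Between Trim34a and Rps13 lay 97 tested genes. Of the 40 nearest tested genes of Rps13, 4 rose and 1 fell, 12.5% in all. Of all tested genes 4.39% rose and 1.12% fell, 5.51% in all. Thumpd1 rose 1.56-fold (limma adjusted p = 0.00325), Pde3b, a phosphodiesterase of cyclic nucleotides, 1.66-fold (limma adjusted p = 0.00736), Syt17, of the synaptotagmin family, 1.43-fold and Plekha7, a protein of the epithelial adherens junction, 1.32-fold. Tmc5, a transmembrane channel-like gene, fell 1.51-fold (limma adjusted p = 0.00996). Plekha7 was the neighbour next to Rps13 on one side, and Pik3c2a, next to it on the other, had a difference of 0.13. The 3 male TKO embryos were the lowest of all 10 for 1 gene near each of the anchors, by 0.18 for Apbb1 near Trim34a and by 0.045 for Nucb2 near Rps13. Over the whole array this was so for 635 of 41345 probe sets. On chromosome 7 as a whole, 71 of 1351 tested genes passed, 5.26%.

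Without WT 3, 2 of the 40 neighbours of Rps13 passed, without TKO 3 likewise 2, without TKO 1 and without TKO 2 in turn 3, and among females only 0. Calls over all tested genes fell too, from 916 to 210, 307, 552, 629 and 56 in the same order. Nothing about these neighbours is read from the drop.

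**Figure D4:**
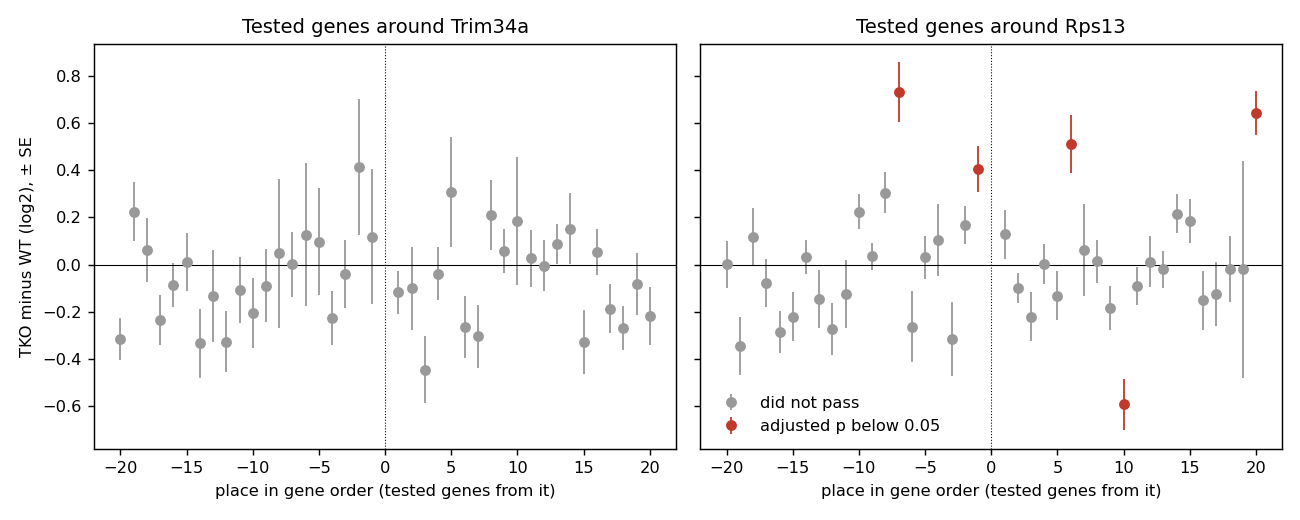
TKO minus WT difference (log2, vertical axis, with its SE) of the 20 nearest tested genes on each side of Trim34a (left) and of Rps13 (right), placed by their order along the chromosome; red points passed an adjusted p of 0.05. None of the genes around Trim34a passed, and 5 of those around Rps13 did, 4 of them higher in TKO.

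The genes whose pattern over the 10 arrays was most like that of Trim34a were found by the root mean square difference of the values, each gene's mean subtracted; a gene that did not vary at all would stand at 1.04. Trim12a was the nearest, at 0.61, followed by Mid1 (0.62), 2810408A11Rik (0.64), Erdr1 (0.64), Prr36 (0.67), Ankub1 (0.68), Hbq1a (0.69), Map1b (0.70), Bbs7 (0.71) and 1810062G17Rik (0.72). Mid1 is itself of the TRIM family, a ubiquitin ligase on microtubules. Mid1 and Erdr1 are assigned to chromosome X and lie at or near the end of X that pairs with Y in mice. Mid1 ranged from 7.95 to 9.66 in TKO and from 9.25 to 10.73 in WT, and Erdr1 from 11.08 to 11.98 in TKO and from 11.98 to 12.61 in WT. Of the 10 genes 1 was on chromosome 7, which holds 8.12% of the tested genes.

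For Rps13 a flat gene would stand at 2.13. Trim34a was the nearest, at 1.13, which restates the choice of both genes for their low values on the same arrays. Next came the knocked-out Mir449c (1.48), Mid1 (1.54), Ebf2 (1.67), Trim12a (1.69), Ncam1 (1.70), Ankub1 (1.71), Gng8 (1.71), 5730403I07Rik (1.72) and Map1b (1.73). Of these 10 genes 4 stood in both lists and 3 were on chromosome 7: Trim34a, Trim12a and Gng8. Trim34a was chosen together with Rps13 and Trim12a is a member of the cluster, so nothing is read from the 3.

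Markers of other cell types that a capture can hold were read beside these values; of all tested genes 4.39% rose and 1.12% fell, 5.51% in all, and the median difference was -0.00052. Of 9 tested olfactory neuron markers none passed, and their median difference was 0.041. Their mean level was 7.48, 5.87, 6.94, 6.15 and 6.15 in TKO 1 to TKO 5, against 7.54, 6.65, 5.99, 6.21 and 8.33 in WT 1 to WT 5. The 3 male TKO embryos, WT 3 and WT 4 had the lowest levels. The Rps13 values of these embryos were 5.58, 4.99 and 5.00 in TKO 2, TKO 4 and TKO 5, against 9.43 and 10.02 in WT 3 and WT 4.

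Of 13 tested mesenchyme, cartilage and bone markers, with a median difference of -0.41, 1 fell, Col3a1 (1.39-fold, limma adjusted p = 0.0234), and the mean level was 6.81, 7.61, 6.56, 7.97 and 7.68 in TKO 1 to TKO 5, against 7.24, 6.87, 7.75, 7.86 and 7.23 in WT 1 to WT 5. The male TKO embryos were high for them, as were WT 3 and WT 4. Leukocyte markers, the cells in which Trim30 and Trim34 genes are best known, averaged 5.90, 6.06, 5.80, 6.26 and 6.29 in TKO 1 to TKO 5, and between 5.69 and 6.17 in WT. Of 21 tested leukocyte markers 1 rose, Gzma, a granzyme of cytotoxic lymphocytes (3.13-fold, limma adjusted p = 0.000426), and none fell; the median difference was -0.12. Of 7 endothelial markers 1 fell, Tie1 (1.31-fold, limma adjusted p = 0.04), with list levels of 5.01 to 5.69 in TKO and 5.09 to 5.85 in WT; all 7 differences were negative, from -0.68 to -0.11, with a median of -0.32. Of 8 skeletal muscle markers 1 fell, Tnnt3 (2.01-fold, limma adjusted p = 0.0302), with list levels of 5.03 to 5.93 in TKO and 5.09 to 6.83 in WT; all 8 differences were negative, from -1.96 to -0.28, with a median of -0.79. The part of other cells in the values of Rps13 and Trim34a was not tested.

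**Figure D5:**
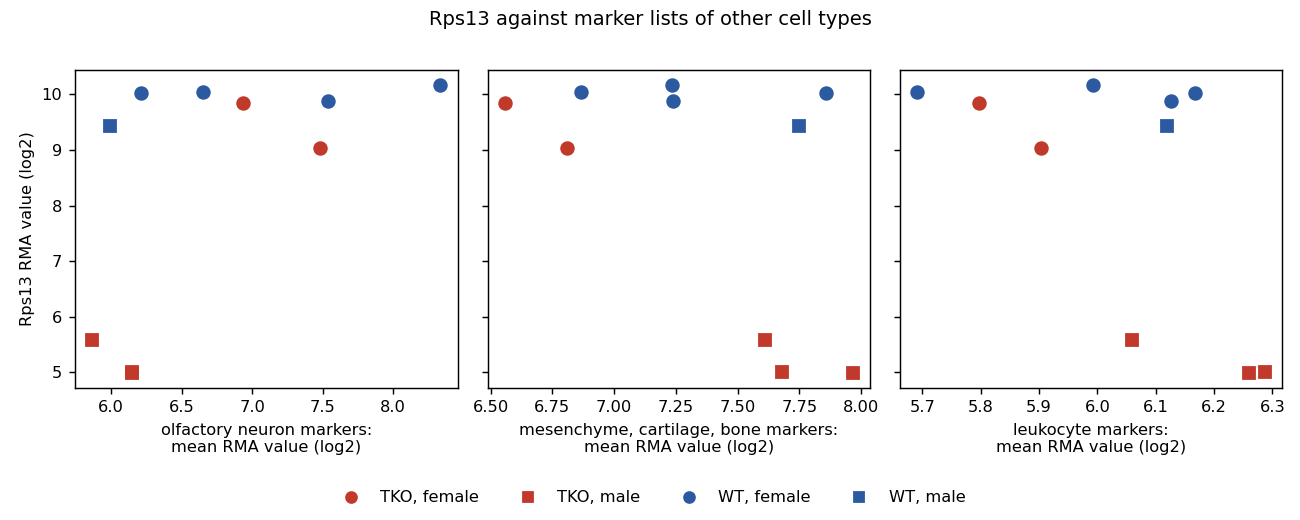
Rps13 (RMA value, log2, vertical axis) against the mean RMA value (log2, horizontal axis) of olfactory neuron, of mesenchyme, cartilage and bone, and of leukocyte markers; each point is an embryo, circles female and squares male, TKO red and WT blue. The olfactory level ran from 5.87 to 7.48 in TKO and from 5.99 to 8.33 in WT embryos, and Rps13 from 4.99 to 9.84 in TKO and from 9.43 to 10.18 in WT; TKO 4 and TKO 5 coincide in the olfactory panel.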

How the data were processed

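The deposited table holds 1 RMA value on the log2 scale per probe set and embryo; per the labels and the submitters' processing notes the authors made it with RMA in the Affymetrix Expression Console, with no version named. That the scale is log2 follows from the range of the values. RMA subtracts background, equalises the distributions of arrays and gives 1 value for the probes of a set. Scanner files were not used here.

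The platform's annotation gave 1 gene symbol to 23521 probe sets and several to 1814; the other 16010 have no name here. RefSeq (GRCm38.p6) was matched by Entrez ID for 23328 of the named ones and used for names, gene order and promoter sequence only.

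All 10 embryos entered a linear model with sex and genotype in limma 3.58.1 (R 4.3.3), with eBayes(trend = TRUE), two-sided p-values and Benjamini-Hochberg adjustment at 0.05. Members were fitted with all 41345 probe sets. Lists and neighbours were fitted on 16635 genes, the brightest probe set of each of 22180 genes with means below the 25th percentile (4.58) left out. SDs and means are unadjusted for sex. In arrays simulated from these 16635 genes (TKO minus WT), changes of 0.5 and 1 were called for 52.0% and 93.8%, and 4.48% of calls were false. The simulated noise was independent for each gene, so these rates leave out variation that genes share between embryos. They do not cover the fit of all 41345 probe sets, in which the members were tested.

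Members and lists were chosen with earlier results of these data known. Named were all members, up to 4 genes per list (smallest p), the nearest and the called neighbours, and the 10 genes most like Trim34a and Rps13; others are marked. Of 14 TRIM partners listed, 11 were tested, and of 2 small nucleolar RNAs of Rps13, 0. The embryos' number limits the precision. Alternatives covered sex, the replicate number, scaling, variance model, array weights, females only, each embryo left out, filters, probe-set means and windows; the genotype-by-sex term was added after the data were seen.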

Additional observations from a re-analysis of the deposited data

Results flagged for a closer look

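A signal outside the probe sets of single genes was that of the brighter probe set annotated to Gm15483, Rps13-ps4 and Rps13, whose TKO mean was 10.42 ± 0.44 and WT mean 7.78 ± 1.44 (SD, n = 5 each), a difference of means of 2.63; within females it was 2.75. Among the 16 probe sets described, 32 groups of 5 embryos were checked for an embryo apart from its group, and 3 had one, where chance gives about 1 in 20. TKO 2 was low among TKO embryos for Trim6, at 4.19. WT 1 was low among WT embryos for Trim30c, at 2.87, a level at the floor of the array. WT 5 was low among WT embryos for the probe set shared by Snord14a and Rps13, at 6.08. Rps13 and Trim34a were not among them, since 3 TKO embryos shared the low values.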

How the results depend on the processing

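The differences of Rps13 and Trim34a stayed negative in all 19 alternatives: Rps13 ran from -3.02 without sex to -0.59 among females only, the brighter Trim34a probe set from -1.62 to -0.58 and the dimmer from -0.94 to -0.30; leaving out WT 3 gives the same estimates as females only, since no WT male is then left to compare. The count of member probe sets past the threshold was 0, and 1 without sex (Trim30d, adjusted p from 0.0416 to 0.292 over all 19), with median centring, with quantile normalization and with dim probe sets left out (Trim6 each time, 0.0432 to 0.323), and with the replicate block, where it was Rps13, which the contrast chose, so that nothing is read from it; it stayed 0 with each embryo left out. Trim30b (-0.065) turned to 0.026 without sex, among females only and without WT 3, with a range of -0.15 to 0.026 over the embryos left out. Neighbours of Trim34a that passed numbered 1 without sex, with the replicate block and with quantile normalization, 4 with genes below the 50th percentile left out, and 0 to 1 with an embryo left out; for Rps13 they numbered 0 among females only, 8 with that filter and 2 to 6 with an embryo left out. With 40 genes on each side 3.75% passed around Trim34a, and with 10 on each side 20% around Rps13. The sex term of member probe sets passed for 0, where it passed for 0.249% of all probe sets. With an embryo left out it passed for 0 to 2, the highest without WT 3. Those 2 were Rps13 and the brighter Trim34a probe set, again chosen on these arrays. All genes called numbered 916, 56 among females only and 210 to 1284 with an embryo left out: 210 without WT 3, 307 without TKO 3 and 552 without TKO 1. The share of higher calls was 79.7%, 92.9% among females only, 91.0% without WT 3 and 69.0% without WT 5. With the replicate block 0 of the relatives passed and 1053 genes were called. Replicate numbers did not pair the embryos: the deviations of same-numbered embryos correlated at -0.11 to 0.15, and 0 of 5 TKO embryos correlated best with their own number. The cause of these shifts was not tested. Without scanner files, signal over background is unknown, and the Trim30 genes lie where it limits any reading.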
